A study of Mus musculus with 6 samples.

Results

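The BCL2 family comprises the proteins that decide whether mitochondria release cytochrome c and so start the caspase cascade of apoptosis. Here 10 of its genes were followed, taken by symbol from a table of read counts with 54532 Ensembl mouse genes. They are the guardians Bcl2, Bcl2l1 (BCL-XL) and Mcl1, the effectors Bax and Bak1, and the BH3-only genes Bad, Bid, Bbc3 (PUMA), Pmaip1 (NOXA) and Bcl2l11 (BIM). Every member had a row and reads in all 6 libraries, and all 10 passed the filter on low counts.

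Guardians hold effectors and BH3-only proteins in check by binding a short helix called the BH3 domain in a groove on their surface. BH3-only proteins are made or activated under stress, occupy that groove or bind the effectors themselves, and free BAX and BAK to open the outer mitochondrial membrane. Tumour cells, gliomas included, often lean on one or more guardians for survival.

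The samples were subcutaneous tumours grown in Kunming mice, an outbred stock, from G422, a mouse glioblastoma line, without further treatment. Tumours of cells labelled shNgb, by its name a hairpin against neuroglobin (Ngb), were compared with tumours of cells labelled shVec, the vector control, with 3 tumours in each group. All cells had been infected with lentivirus, and the series' text on the design names Ngb itself, not a hairpin, as what the cells received. That text calls the tumours independent. Titles and source names give G422 for all 6, while the number in the cell line tag goes up by 1 from sample to sample, and all were taken as G422. No source used here states the ages of the mice, whether each tumour had its own mouse or whether the infected cells were 1 clone. The p-values therefore set the difference between groups against the scatter of these 6 tumours, and do not speak for further mice or clones.

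Libraries held 21018697 to 25620667 reads in shNgb tumours and 19630319 to 22427004 in shVec tumours, and correlations of log2 CPM across genes were 0.98 to 0.99 both within and between groups. Ngb had 18, 19 and 11 reads in shNgb tumours and 28, 23 and 13 reads in shVec tumours, with overlapping groups, so its reads do not settle the labels. Of 10 markers of glial and neural identity, Nes, Sox2 and Vim were abundant enough to test, while Olig1, Olig2 and Aqp4 had 0 reads in every library and Gfap at most 6 in any. Nes was lower in shNgb without overlap of the groups, at a log2 fold change (shNgb minus shVec) of -0.29 and an adjusted edgeR p of 0.9997. Such separation, lower in shNgb, was found in 3.43% of all genes tested, and the groups overlapped for Sox2 and Vim. The shNgb 3 tumour was highest in T and NK cell markers, with 37.5 CPM (reads per 1000000 reads of the library, scaled by edgeR's TMM method) summed over 13 T and NK cell genes, against 4.44 and 18.02 CPM in the other shNgb tumours and 4.12 to 17.1 CPM in shVec tumours. The sum of 7 neutrophil markers was instead highest in shNgb 1, at 11.7 CPM. That sum was 2.715 and 5.21 CPM in the other shNgb tumours and 2.14 to 3.68 CPM in shVec tumours. Only 2 of the 7, Csf3r and S100a9, were abundant enough to test. S100a8, S100a9, Cxcr2 and Retnlg were each highest in shNgb 1. Csf3r was highest in shNgb 3, at 4.484 CPM against 3.906 CPM in shNgb 1 and 2.263 CPM in shNgb 2. The shVec tumours lay lower, at 1.093 to 1.713 CPM, with an adjusted edgeR p of 0.9997. Such separation, higher in shNgb, was found in 3.67% of all genes tested, and the groups overlapped for S100a9. Mpo had 0 reads in shNgb 1, and Ly6g had 0 in every library. In bulk tumours, fewer cells of a type and less RNA per cell cannot be told apart.

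The BH3 core is the feature that joins guardians, effectors and BH3-only genes. Its codons were sought in frame in the longest coding sequence of each member as a leucine codon, 3 codons of any bases, a codon for a small residue and an aspartate codon. Leucine was CTN or else TTA or else TTG, the small residue was glycine GGN, alanine GCN or serine, which is TCN or else AGC or else AGT, and aspartate was GAC or else GAT. The search ran on the coding strand of GENCODE M21 transcripts. Each of 9 members held exactly 1 match, shown here as 24 bases of the C57BL/6J reference, build GRCm38, from 5′ to 3′, with the leucine and the aspartate codon in capitals. Pmaip1 held 2 matches, whose bases are not shown. The tumours came from the G422 line in Kunming hosts, so their own bases may differ from the reference.
Bcl2 (chr1:106712578-106712601, minus strand): CTCcgccgggctgggGATgacttc
Bcl2l1 (chr2:152829700-152829723, minus strand): CTGagagaggcaggcGATgagttt
Mcl1 (chr3:95659436-95659459, plus strand): CTGcggcgcgtgggcGACggcgtg
Bax (chr7:45466000-45466023, minus strand): CTCcggcgaattggaGATgaactg
Bak1 (chr17:27022534-27022557, minus strand): CTTgctctcatcggaGATgatatt
Bad (chr19:6950792-6950815, plus strand): CTCcgaaggatgagcGATgagttt
Bid (chr6:120897292-120897315, minus strand): CTCgcccaaataggcGATgagatg
Bbc3 (chr7:16313773-16313796, plus strand): CTGcggcggatggcgGACgacctc
Bcl2l11 (chr2:128147150-128147173, plus strand): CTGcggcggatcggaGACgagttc

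In 7 of these 9 segments the codon before the aspartate was a glycine codon, the exceptions being a serine codon in Bad and an alanine codon in Bbc3. The codon after the aspartate was acidic in 8 of 9, with Mcl1 the exception. Bcl2l11 and Bbc3 were the closest pair, with 19 of 24 bases alike, and pairs of members shared as few as 11 bases. The pattern alone does not mark the family: 34.0% of 21614 mouse genes with a coding sequence held it somewhere in frame. Each segment lay within a single coding exon, but not in every annotated coding transcript. It was present in 6 of 8 coding transcripts of Bcl2l1, 3 of 4 of Bax, 1 of 2 of Bid, 1 of 3 of Bbc3 and 4 of 5 of Bcl2l11, and in all of those of Bcl2, Mcl1, Bak1 and Bad. Counts per gene pool these forms, so the values below do not separate transcripts with and without the BH3 core.

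Levels were compared between genes as FPKM, the authors' depth-scaled reads per kilobase, which is a scale per length. The length implied by the FPKM was 1.002 of all annotated exons pooled, except for Bad (0.786) and Pmaip1 (0.97). For Bcl2 it was 9171 bases, against 7191 bases in the longest coding transcript. A greater length lowers the FPKM, so the order of levels depends on this choice. Mcl1 was the most abundant member, with a mean of 96.3 FPKM over the 6 tumours, above 96.8% of the 15203 genes tested. Bak1 followed with 47.9 FPKM and Bax with 39.9 FPKM, above 92.3% and 90.5% of genes. Bad stood at 12.9, Bbc3 at 12.5, Bid at 8.42 and Bcl2l1 at 5.48 FPKM. Bcl2l11 at 3.25 FPKM, Bcl2 at 1.47 FPKM and Pmaip1 at 0.484 FPKM closed the order. The ranges over the 6 tumours overlapped between Bak1 and Bax, between Bad and Bbc3 and between Bbc3 and Bid, so the order within those pairs is within the spread, and every other neighbour in the order was separate. The span from Mcl1 to Pmaip1 was present in each tumour, as the plot of levels by role shows.

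**Figure D1:**
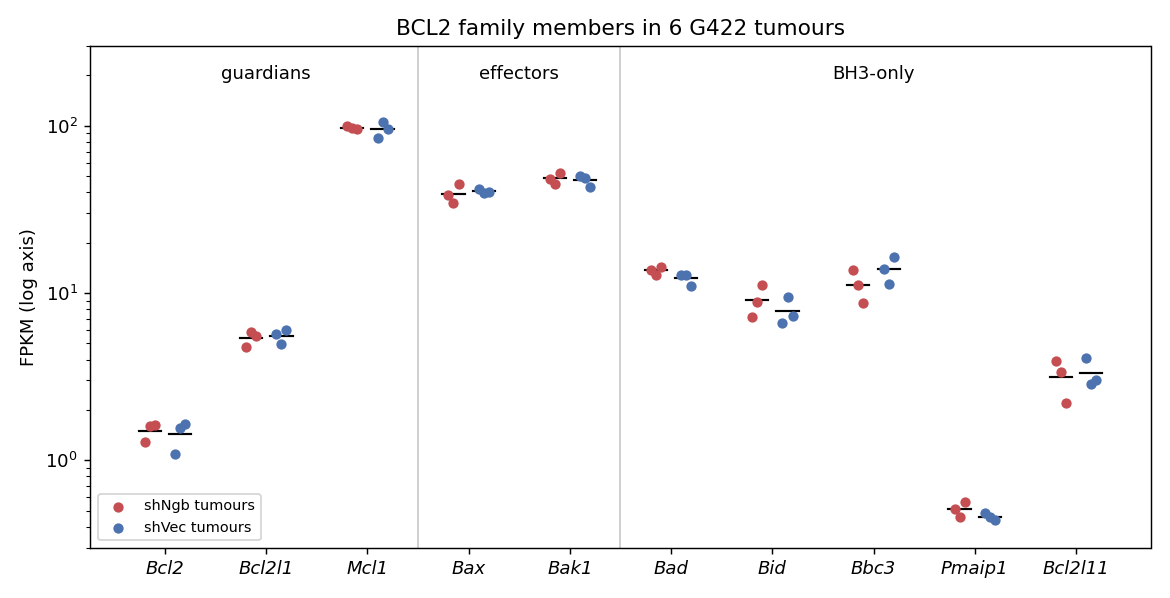
FPKM of the 10 members (vertical log axis) in each tumour, shNgb left (red) and shVec right (blue) within a gene, with the mean of 3 tumours as a black line; genes are ordered by role. Mcl1 lies near 96.3 FPKM and Pmaip1 near 0.484 FPKM in both groups, at the top and the bottom of the order in every tumour.

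None of the 10 members differed between shNgb and shVec tumours by the edgeR quasi-likelihood test. Adjusted over all genes, 0 members and 0 of 15203 genes (0.0%) passed at 0.05, and each member's adjusted p was 0.9997. At an unadjusted p under 0.05 there were 0 members, against 392 genes or 2.58% of those tested. limma-voom and DESeq2 called 0 members as well, with 0 (limma-voom, 0.0%) and 5 (DESeq2, 0.0313%) calls over all genes. The log2 fold changes (shNgb minus shVec) ran from -0.30 (Bbc3) to 0.23 (Bid), with 6 above 0 and a median of 0.042, beside 50.9% above 0 and a median of 0.003 over all genes tested. For Bcl2, Bcl2l1, Mcl1, Bax, Bak1 and Bad the 95% interval lay within a 1.5-fold change either way, as it did for 59.8% of genes. For Bid, Bbc3, Pmaip1 and Bcl2l11 it reached past 1.5-fold but stayed within 2-fold.

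**Figure D2:**
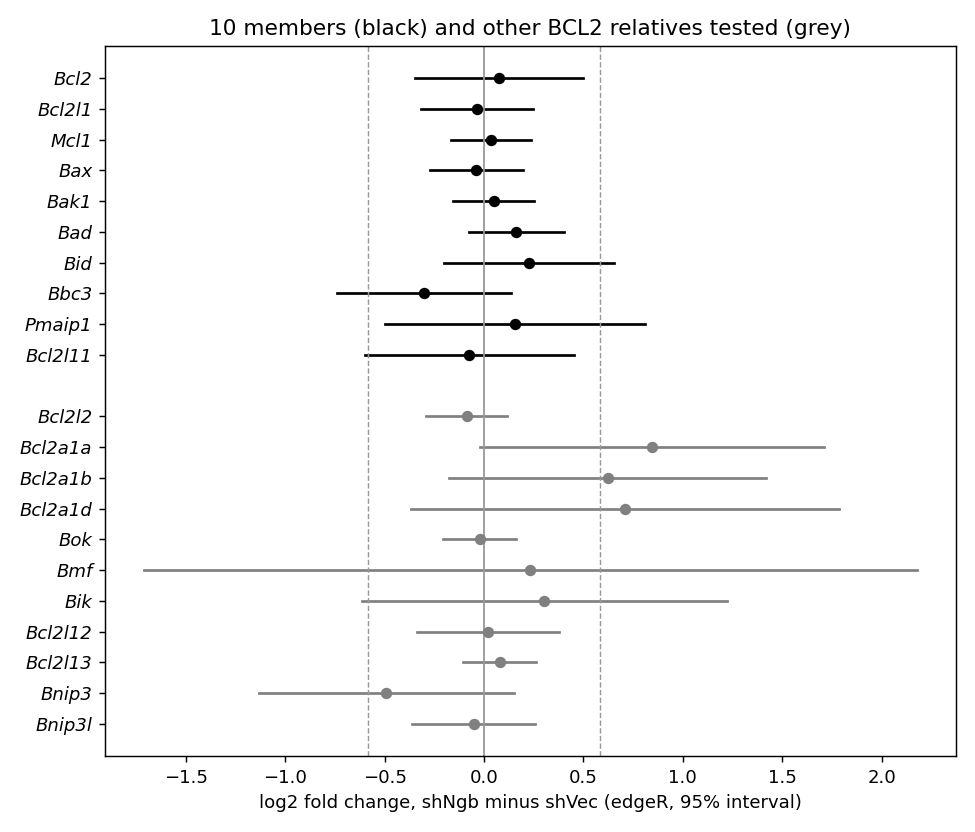
Log2 fold change, shNgb minus shVec (horizontal axis), with its 95% interval from edgeR, for the 10 members (black) and 11 further BCL2 relatives that were tested (grey); dashed lines mark a 1.5-fold change. Every interval of a member includes 0, from Bbc3 at -0.30 to Bid at 0.23.

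Among the guardians, Mcl1, a short-lived protein that binds BAK and BIM, had 100.1, 96.7 and 95.1 FPKM in shNgb tumours and 84.4, 105.6 and 95.9 FPKM in shVec tumours. The shVec values lay on both sides of the shNgb values, with shVec 1 lowest and shVec 2 highest. Its log2 fold change was 0.04 (SE 0.09), with an interval from 0.891-fold to 1.18-fold.

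Bcl2l1, whose long protein form BCL-XL is a guardian, had 4.78, 5.87 and 5.54 FPKM in shNgb tumours and 5.70, 4.94 and 6.03 FPKM in shVec tumours. The groups interleaved, and the log2 fold change was -0.04 (SE 0.12), with an interval from 0.803-fold to 1.19-fold. Bcl2, the founding member of the family, had 1.29, 1.61 and 1.61 FPKM in shNgb tumours and 1.10, 1.56 and 1.65 FPKM in shVec tumours. Replicate 1 was the lowest tumour in both groups, whose ranges overlapped. The log2 fold change was 0.08 (SE 0.19), with an interval from 0.787-fold to 1.41-fold.

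Mcl1 thus made up most of the summed FPKM of Bcl2, Bcl2l1 and Mcl1, at 94.3%, 92.8% and 93.0% in shNgb tumours and 92.5%, 94.2% and 92.6% in shVec tumours. Bcl2l2 (BCL-W), a guardian outside the 10 members, was the second most abundant of 25 family genes, with 69.2 FPKM on average. It had 64.0, 70.4 and 66.5 FPKM in shNgb tumours and 77.3, 63.2 and 73.8 FPKM in shVec tumours, and its log2 fold change was -0.09 (SE 0.09). With Bcl2l2 counted in, the 4 guardians summed to 171 ± 2.98 FPKM in shNgb and 174 ± 4.62 FPKM in shVec tumours (SD, n = 3 each). Mcl1 then took 56.9% ± 1.78 of that sum in shNgb tumours and 54.8% ± 5.12 in shVec tumours. Bcl2l2 took 39.1% ± 1.39 in shNgb tumours and 41.2% ± 4.93 in shVec tumours. Both shares differed by less than the SD of the shVec tumours, but by more than that of the shNgb tumours. For both shares, all shNgb values lay inside the shVec range.

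The effectors Bax and Bak1, either of which can form the pore in the outer mitochondrial membrane, were steady. Bax had 38.7, 34.4 and 44.9 FPKM in shNgb tumours and 41.7, 39.8 and 40.1 FPKM in shVec tumours. All shVec values fell inside the shNgb range. For Bax the log2 fold change was -0.04 (SE 0.10), with an interval from 0.827-fold to 1.15-fold.

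Bak1 had 48.2, 45.1 and 52.5 FPKM in shNgb tumours and 50.1, 48.5 and 43.0 FPKM in shVec tumours. The groups interleaved, and shNgb 3 was the highest tumour for both effectors. Bak1's log2 fold change was 0.05 (SE 0.09), with an interval from 0.899-fold to 1.19-fold. The summed FPKM of the 2 effectors was 0.844 ± 0.0972 of that of the 3 member guardians in shNgb tumours and 0.865 ± 0.122 in shVec tumours. The ratio of Bax to Bcl2, often quoted as a measure of readiness for apoptosis, was 30.0, 21.3 and 27.8 in shNgb tumours and 38.0, 25.5 and 24.3 in shVec tumours on the FPKM scale, again with overlap. Bok, an effector relative that needs no BH3-only protein for its activity, stood at 54.6 FPKM on average, above both Bak1 and Bax in the mean, with a log2 fold change of -0.02 (SE 0.08).

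Among the BH3-only members, Bbc3, Bcl2l11 and Bid had the widest ranges over tumours of all 10 genes. Between the highest and the lowest tumour, CPM differed 1.88-fold for Bbc3, 1.86-fold for Bcl2l11 and 1.70-fold for Bid. The ratio was 1.51 for Bcl2 and from 1.23 (Bak1) to 1.30 (Bad) for the other members. For each of the 3 widest genes the groups overlapped. The summed FPKM of the 5 genes was nearly the same in all tumours, at 39.2, 36.6 and 36.9 in shNgb and 37.9, 36.8 and 38.2 in shVec tumours.

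Bbc3 encodes PUMA, a p53 target that binds every guardian. It had 13.8, 11.2 and 8.67 FPKM in shNgb tumours and 13.9, 11.3 and 16.4 FPKM in shVec tumours. The lowest tumour was shNgb 3 and the highest shVec 3, while the other 4 interleaved. The log2 fold change was -0.30 (SE 0.19), with an interval from 0.599-fold to 1.10-fold and an unadjusted edgeR p of 0.149. The value rested on individual tumours: it was -0.15 without shNgb 3, -0.17 without shVec 3, and -0.48 without shNgb 1, where Bbc3 reached an unadjusted edgeR p of 0.0353 (adjusted 0.919).

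Bid, which caspase-8 cleaves to link death receptors to mitochondria, had 7.23, 8.80 and 11.1 FPKM in shNgb tumours and 6.59, 9.45 and 7.31 FPKM in shVec tumours. The highest tumour was shNgb 3, followed by shVec 2. Its log2 fold change was 0.23 (SE 0.19), with an interval from 0.870-fold to 1.58-fold and an unadjusted edgeR p of 0.257, and it was 0.05 without shNgb 3 and 0.39 without shVec 2. Bid shares 628 exon bases with Bcl2l13 on the opposite strand, and the library kit does not mark strand, so reads there cannot be assigned. Bcl2l13 itself, a mitochondrial relative of the family, had a log2 fold change of 0.08 (SE 0.08).

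Bcl2l11 encodes BIM, which FOXO factors induce when growth factors are withdrawn. It had 3.93, 3.36 and 2.20 FPKM in shNgb tumours and 4.11, 2.87 and 3.03 FPKM in shVec tumours. As for Bbc3, shNgb 3 was the lowest tumour, and the groups overlapped. The log2 fold change was -0.07 (SE 0.23) and was 0.13 without shNgb 3 and 0.10 without shVec 1, a change of sign. The sum of 10 fibroblast markers was also lowest in shNgb 3, at 1238 CPM, against 2570 and 2206 CPM in the other shNgb tumours and 1827 to 2144 CPM in shVec tumours. Col3a1 was the largest term of that sum in each tumour, and the list did not move as one by tumour. The shNgb 3 tumour was the lowest for Col3a1, at 605 CPM, but the highest for Thy1, at 16.8 CPM. Between groups, 8 of the 9 tested fibroblast genes had a log2 fold change above 0, beside 50.9% of all genes. Col1a1, Col1a2 and Thy1 (33.3% of the 9) had an unadjusted edgeR p under 0.05, beside 2.58% of all genes. The adjusted p of each was 0.9997. By the mean score over its tested genes the lowest tumour was shVec 3, at -0.454, followed by shNgb 3 at -0.32. The part of fibroblasts in the values of Bcl2l11 was not tested.

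Bad, which loses its grip on BCL-XL when phosphorylated by growth factor kinases, was the 1 member whose groups did not overlap. Scaled by TMM, it had 27.7, 26.1 and 29.0 CPM in shNgb tumours and 25.9, 25.8 and 22.2 CPM in shVec tumours. Such separation was found in 7.1% of all genes tested in either direction and, higher in shNgb, in 3.67%, so 1 of 10 members is near that background. On the deposited FPKM, which use other library factors, the groups overlapped, at 12.86 FPKM in shNgb 2 against 12.87 FPKM in shVec 1. The log2 fold change of Bad was 0.16 (SE 0.11), with an interval from 0.947-fold to 1.32-fold and an unadjusted edgeR p of 0.161. Bad shares 524 exon bases with Gpr137 on the opposite strand, and the length behind its FPKM, 2010 bases, was 0.786 of its annotated exons.

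Pmaip1 encodes NOXA, which binds mainly MCL1. It was the scarcest member, with 28, 30 and 39 reads in shNgb tumours and 28, 24 and 23 reads in shVec tumours. In CPM these were 1.35, 1.23 and 1.495 in shNgb and 1.28, 1.21 and 1.17 in shVec tumours, and the groups overlapped. Its interval, from 0.709-fold to 1.76-fold around a log2 fold change of 0.16 (SE 0.29), was the widest among the members.

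Within the BH3-only sum, Bad took a larger share than Bid in all 6 tumours, and Bbc3 took a larger share than Bid in every tumour except shNgb 3. Bid was 18.4%, 24.03% and 30.2% of the sum in shNgb tumours and 17.4%, 25.7% and 19.1% in shVec tumours, while Bbc3 was 35.2%, 30.5% and 23.5% in shNgb tumours and 36.6%, 30.6% and 42.9% in shVec tumours. The tumours with the most Bid, shNgb 3, shVec 2 and shNgb 2, were those with the least Bbc3. They were also those with the most reads from macrophage and from T and NK cell markers.

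The 13 macrophage markers, all tested and all with a log2 fold change above 0, summed to 180, 330 and 406 CPM in shNgb tumours and 138, 290 and 221 CPM in shVec tumours. Of the 13 T and NK cell genes 10 were tested, also all above 0, while Cd3e, Ncr1 and Klrb1c were too scarce. Over all genes tested, 50.9% lay above 0. In each of these 2 lists edgeR called 0 genes, and the groups overlapped for every tested gene. At an unadjusted edgeR p under 0.05 there was 1 gene in each list, beside 2.58% of all genes. Genes of 1 list were read in the same 6 tumours, so their common sign is not independent evidence. Bid ran in nearly the same order of tumours as the macrophage sum. Over 6 tumours, Bid and the macrophage list score had Pearson r = 0.95 (exact permutation p = 0.00972) and Spearman rho = 0.94 (exact permutation p = 0.0167). Without the 2 tumours of most extreme score r was 0.87, and within groups, after subtraction of the group means, it was 0.95. For Bbc3 and the T and NK cell list r was -0.96 (exact permutation p = 0.00417) and rho -0.94 (exact permutation p = 0.0167), with r = -0.89 without the 2 most extreme tumours and -0.95 within groups. Bid with the T and NK cell list (r = 0.95, exact permutation p = 0.0167) and Bbc3 with the erythroid list (r = -0.94, exact permutation p = 0.0111) gave values of like size. These were taken from 90 relations of 10 members with 9 marker lists. After Benjamini-Hochberg adjustment the smallest values were 0.333 for r and 0.375 for rho, so none passed. With 6 tumours there are 720 orders, and the smallest exact permutation p that rho can take is 0.002778. Over 90 relations, no single relation could pass alone, by r or by rho. That none passed therefore decides nothing about any 1 relation. The labels give no batch to split by, and the part of immune cells in the values of Bid and Bbc3 was not tested.

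**Figure D3:**
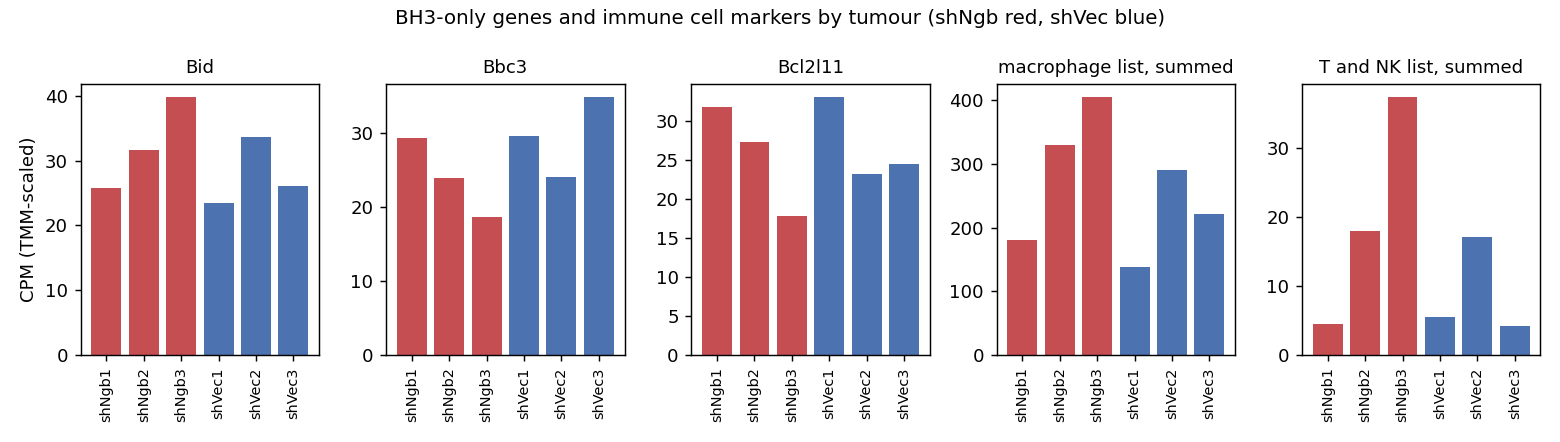
TMM-scaled CPM (vertical axes, each from 0) in the 6 tumours, shNgb in red and shVec in blue, for Bid, Bbc3 and Bcl2l11 and for the sums of 13 macrophage and 13 T and NK cell markers. The shNgb 3 tumour is highest for Bid and for both marker sums and lowest for Bbc3 and Bcl2l11.

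The remaining family genes, 15 in all, gave 0 calls among the 11 that could be tested, by edgeR, limma-voom and DESeq2 alike. The largest log2 fold changes were those of the A1 genes Bcl2a1a (0.84, SE 0.38), Bcl2a1d (0.71, SE 0.47) and Bcl2a1b (0.62, SE 0.35), guardians of blood cells. These 3 are near-identical copies, so single counts are uncertain. Summed, they had 5.11, 7.73 and 10.6 CPM in shNgb tumours and 3.28, 6.65 and 4.28 CPM in shVec tumours. The order of tumours was close to that of the macrophage sum, and the part of blood cells in it was not tested.

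Bnip3, a mitophagy receptor and a classical target of hypoxia, stood at 114, 85.9 and 51.2 CPM in shNgb tumours and 115, 126 and 111 CPM in shVec tumours. The low values of shNgb 3 and shNgb 2 set its log2 fold change of -0.49 (SE 0.27), which was -0.24 without shNgb 3. Its relative Bnip3l was at -0.05 (SE 0.14). Bmf, a BH3-only gene linked to detachment from matrix, had the widest spread of the family, with 13.5, 22.5 and 2.80 CPM in shNgb tumours and 18.2, 4.33 and 10.3 CPM in shVec tumours. Both groups covered most of that range, and its interval ran from -1.71 to 2.18 (log2). Bcl2l12 was at 0.02 (SE 0.16) and Bik, a BH3-only protein of the endoplasmic reticulum, at 0.30 (SE 0.41) with 81 reads in all. Hrk had 15 reads over the 6 libraries, Bcl2l15 15 and Bcl2l14 19, and Bcl2l10 had 0, which allows up to 3 reads over the 6 libraries, by counting error only.

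Downstream and upstream of the family, 62 genes in 7 lists (the 15 relatives included) gave 0 edgeR calls among the 54 tested (background 0.0%). Of the 54, 31 had a log2 fold change above 0, with a median of 0.018. At an unadjusted p under 0.05 there were 0 higher and 2 lower, 3.7% of the list, beside 2.58% of all genes in either direction and 1.22% lower. The groups did not overlap in 3 genes, Atf4, Chka and Vdac2, all lower in shNgb, beside 3.43% of all genes lower. With upper-quartile scaling this became 3 higher and 1 lower.

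Both of the genes under 0.05, Atf4 and Chka, belonged to the list drawn up as inducers of BH3-only genes. No source used here shows Chka to be such an inducer. The list, like the others, was chosen with earlier results of these data known. In it 8 of 10 tested genes had a log2 fold change below 0, and the median was -0.235. Atf4, the transcription factor of the integrated stress response, had 466, 468 and 415 CPM in shNgb tumours and 495, 598 and 607 CPM in shVec tumours. All 3 shNgb values lay below the shVec values. The log2 fold change of Atf4 was -0.33 (SE 0.10), with an unadjusted edgeR p of 0.00693 and an adjusted one of 0.9997. Chka, choline kinase alpha, was at -0.34 (SE 0.14), with an unadjusted edgeR p of 0.0427 (adjusted 0.9997). It had 53.1, 41.5 and 53.3 CPM in shNgb tumours and 53.7, 59.5 and 74.2 CPM in shVec tumours, so that shNgb 3 and shVec 1 were nearly alike. Trp53, which encodes p53, the inducer of Bbc3, Pmaip1 and Bax, was at 338 ± 19.9 CPM in shNgb and 330 ± 17.6 CPM in shVec tumours (SD, n = 3 each).

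Among genes of mitochondrial release and the apoptosome, 0 of 9 were called, with log2 fold changes from -0.13 to 0.10. Aifm1, the apoptosis-inducing factor, was at 0.10 (SE 0.10). Vdac2, the outer membrane channel that holds BAK, was at -0.05 (SE 0.06), with 266 ± 5.56 CPM in shNgb tumours and 275 ± 3.17 CPM in shVec tumours and no overlap between groups. Cycs, cytochrome c, and Apaf1, the scaffold of the apoptosome, were at 0.05 (SE 0.13) and 0.02 (SE 0.12).

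The caspases, the proteases that carry out apoptosis, numbered 6 in their list, all with log2 fold changes above 0 and a median of 0.097, and 0 were called. Of the 6 inhibitors of apoptosis proteins 0 were called. Birc5, survivin, a protein of dividing cells, was at 0.16 (SE 0.10) and Naip2, an inflammasome sensor of macrophages, at 0.56 (SE 0.54).

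Of the 9 death receptor genes, 7 were tested and 0 called. Tnfrsf1a, the TNF receptor, was at 0.11 (SE 0.08) and Tnfrsf10b, the mouse TRAIL receptor, at 0.17 (SE 0.14). Fas, the receptor of FAS ligand, was too scarce to test, with 5, 9 and 11 reads in shNgb tumours and 1, 10 and 0 reads in shVec tumours. Among 5 tested genes of MCL1 turnover 0 were called, and their log2 fold changes ran from -0.08 to 0.01. Huwe1, a ubiquitin ligase of MCL1, was at -0.08 (SE 0.07) and Gsk3b, a kinase that marks MCL1 for degradation, at -0.07 (SE 0.11).

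**Figure D4:**
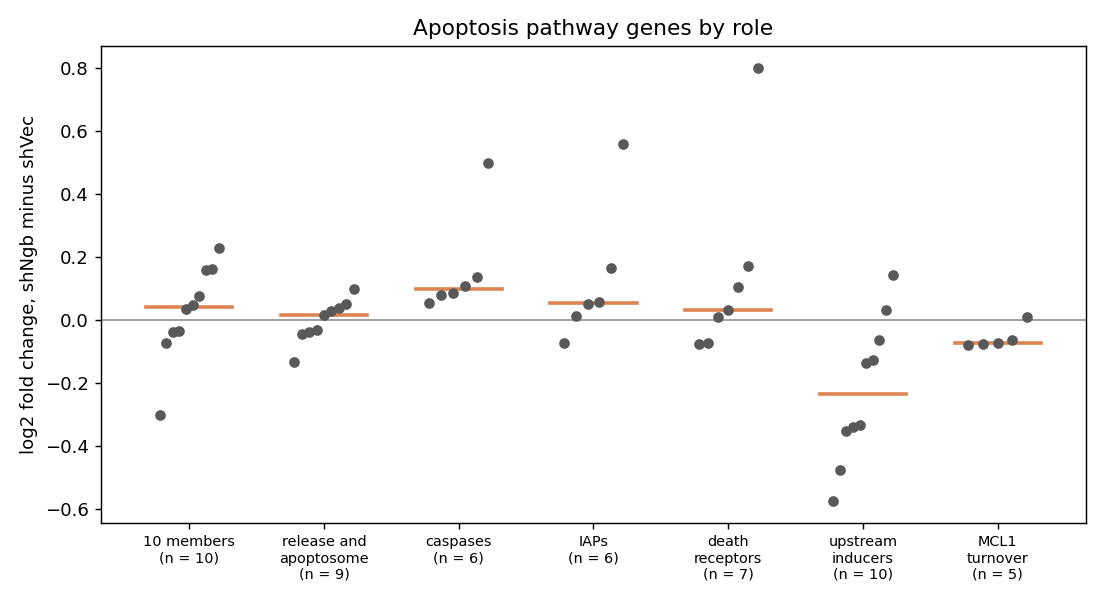
Log2 fold change, shNgb minus shVec (vertical axis), of each tested gene in the 10 members and in 6 lists of pathway genes, without the 15 further family genes; orange lines are medians and n is the number of genes tested. The median of the members is 0.042, and that of the upstream inducers, -0.235, is the lowest of the lists shown.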

How the data were processed

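The authors deposited whole-number read counts per Ensembl gene for all 6 tumours and FPKM values for each tumour. Per the labels' protocols, Trizol-extracted RNA went into TruSeq RNA libraries, a kit that keeps no strand information. The submitters' processing notes list Bowtie 0.12.2 and the builds mm8 and mm10, with no step named for any of them, and what counted the reads is not given in the sources used here. Per member, FPKM equalled counts divided by a gene and a library factor, with a largest log deviation of 7.6e-10.

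Symbols and exons came from GENCODE M21 (GRCm38), which named 54409 of 54532 rows. Counts were tested with edgeR 4.0.16 (TMM, default filter, robust quasi-likelihood F-test, Benjamini-Hochberg over all tested genes, R 4.3.3), after a check on simulated counts. Intervals are 95% and derived from the F statistic. DESeq2 1.42.0 and limma-voom 3.58.1 were alternatives, beside other scalings and filters and leaving out each tumour. A marker score is the mean log2(CPM + 0.5) of tested markers, centred on the 6 tumours. Members and lists were chosen with earlier results of these data known. Named genes were the members, relatives with reads and the 2 of smallest p in each other pathway list, except some that are not reported here; Bcl2l10, Cycs, Apaf1, Trp53 and Fas were added after their values were seen. Near copies of members were sought with blastn 2.17.0 at 95% identity over 250 bases, and none was found besides overlapping genes.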

Additional observations from a re-analysis of the deposited data

How the results depend on the processing

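No member and no pathway gene was called under any scaling, filter, tool or threshold tried, or with any 1 tumour left out. Over all genes, 3 were called without the filter, 5 by DESeq2 and 1 with the replicate number as a block. The block did not rest on pairing, since same-numbered tumours had deviations correlated at 0.26, -0.14 and -0.10. Genes at an unadjusted p under 0.05 numbered 392, and 832 without the filter. Leaving out 1 tumour gave 216 to 784 such genes, and 0 to 1 such members. Genes whose groups did not overlap numbered 1079, and 1807 without the filter. Leaving out 1 tumour gave 1927 to 3086 such genes and 1 to 2 members, where groups of 2 against 3 separate more easily. On deposited FPKM, an alternative chosen after seeing the data, 0 members were separate. By CPM in place of FPKM, which leaves out length, 6 of 10 members kept their place in the order of levels.

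Of 428 gene values under alternatives 20 changed sign, 18 of them with a tumour left out. Those ranges (log2) were -0.088 to 0.19 for Bcl2, -0.11 to 0.045 for Bcl2l1, -0.048 to 0.12 for Mcl1, -0.15 to 0.048 for Bax, -0.017 to 0.097 for Bak1 and -0.26 to 0.13 for Bcl2l11. They were -0.084 to 0.0098 for Bok, -0.45 to 0.81 for Bmf, -0.069 to 0.074 for Bcl2l12, -0.17 to 0.084 for Bnip3l and -0.14 to 0.028 for Gsk3b. Bmf was at -0.058 with limma-voom and -0.022 with the replicate block. The causes were not tested. With 3 tumours a group, the intervals of Bid, Bbc3, Pmaip1 and Bcl2l11 leave changes past 1.5-fold undecided.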

Other observations

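Further genes of the integrated stress response on the list of inducers, named after their values were seen, lay lower in shNgb on average without passing a test. Trib3, a pseudokinase induced by ATF4, had 63.2, 78.0 and 40.0 CPM in shNgb tumours and 74.3, 80.3 and 115 CPM in shVec tumours. Ddit3, which encodes CHOP, had 33.8, 35.3 and 22.8 CPM in shNgb tumours and 32.3, 36.2 and 59.5 CPM in shVec tumours. In both genes shNgb 3 was the lowest and shVec 3 the highest tumour, as for Bbc3, and the groups overlapped. A link of Trib3 or Ddit3 with Bbc3 was not tested. The edgeR log2 fold changes were -0.58 (SE 0.27) for Trib3 and -0.48 (SE 0.27) for Ddit3, each with an adjusted p of 0.9997.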
